A study of Mus musculus with 12 samples.

Results

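The genes described here are 10 enzymes that desaturate or lengthen long-chain fatty acids in mouse CD8+ T cells: *Scd1*, *Scd2*, *Fads1*, *Fads2*, *Fads3*, *Elovl1*, *Elovl5*, *Elovl6*, *Elovl7* and *Hsd17b12*. They were chosen by name from the 54532 genes in the deposited tables, as the class of enzymes that acts on fatty acids like trans-vaccenic acid (TVA), an 18-carbon fatty acid with a single trans double bond. All 10 names were found once each, and 9 passed the filter on low values, a mean level of 1 FPKM or more across all 12 libraries, which left 11550 genes for testing. *Fads3* did not pass. The choice was made with results of these libraries known, so the effect of TVA in control cells and its interaction with knockdown are given for the 10 genes as a description without a p-value. The adjusted p-values of the other comparisons come from limma over all 11550 genes and are not independent of that choice.

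Primary CD8+ T cells, the cytotoxic lymphocytes, were taken from mice, activated in culture and transfected with siRNA, either a control without a target (siNTC) or one against *Creb1* (si*Creb1*), which encodes the cAMP-responsive transcription factor CREB. They then received 20 μM TVA or its solvent DMSO for 24 h. The 4 groups were siNTC with DMSO and siNTC with TVA, both labelled WT, and si*Creb1* with DMSO and si*Creb1* with TVA, both labelled *Creb1* KD, with 3 libraries in each. All 4 groups had been through siRNA delivery, and the knockdown is transient and not sorted for. The labels of these samples give no age, sex or strain of the mice, and nothing says whether the 3 libraries of a group came from separate mice or cultures, so the p-values measure the spread between libraries, which may be technical.

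The deposited values are FPKM, reads scaled by gene length and library size. Multiplied by gene length they were whole multiples of a step in each library, which gave back between 16660234 and 24602484 reads per library. *Creb1* itself lay between 10.3 and 12.4 FPKM in the 6 siNTC libraries and between 1.17 and 1.81 FPKM in the 6 si*Creb1* libraries. The 8 CD8 T cell markers (*Cd3d*, *Cd3e*, *Cd3g*, *Cd2*, *Cd5*, *Cd8a*, *Cd8b1* and *Gzmb*) summed to between 2000.0 and 2110 FPKM. The 3 CD4 T cell markers summed to at most 6.2 FPKM, the 4 B cell markers to at most 14.2, the 5 myeloid markers to at most 12.2, the 2 NK cell markers to at most 5.24 and the 3 adipocyte markers to at most 0.145. In such bulk samples fewer cells of a type and less RNA per cell cannot be told apart.

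Stearoyl-CoA desaturases, encoded by the *Scd* genes, put a cis double bond at the delta-9 position of saturated acyl-CoAs and so make oleate and palmitoleate. The same reaction on TVA gives rumenic acid, a conjugated linoleic acid. *Fads2* and *Fads1* encode the delta-6 and delta-5 desaturases that turn linoleate and alpha-linolenate into longer polyunsaturated fatty acids, and FADS3 has been described as acting on TVA itself. The ELOVL enzymes start each round of chain lengthening and differ in the chains they accept, and HSD17B12 is the reductase of the next step. Several of these genes, *Scd1* and *Fads2* among them, are classical targets of the transcription factor SREBP-1, which polyunsaturated fatty acids hold back, and *Scd1* is also a target of the liver X receptors.

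RefSeq promoter windows (GRCm38.p6, from 250 bases before the transcript start to 50 bases after it) were at hand for 7 of the 10 genes, in 8 windows because *Elovl1* has 2 starts. *Scd1*, *Scd2* and *Fads1* had none. The stretches below are those of *Fads2*, the gene outside the *Scd* family that differed most between groups, and of *Elovl5*, whose window is the only one of the 8 with the complete cAMP response element TGACGTCA, the palindrome that CREB binds. Capitals mark the motifs found, which are the GC box GGGCGG in *Fads2* and, in *Elovl5*, the complete element and the CCAAT box, which here reads on the opposite strand.
Fads2, chr19:10101504-10101753, minus strand, the 250 bases before the start: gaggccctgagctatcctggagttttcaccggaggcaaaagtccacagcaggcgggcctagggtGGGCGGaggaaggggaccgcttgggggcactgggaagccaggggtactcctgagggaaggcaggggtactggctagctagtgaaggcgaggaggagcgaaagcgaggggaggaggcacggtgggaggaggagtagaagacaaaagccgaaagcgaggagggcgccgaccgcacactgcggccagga
Elovl5, chr9:77917215-77917376, plus strand, from base −150 to base 12 of the transcript: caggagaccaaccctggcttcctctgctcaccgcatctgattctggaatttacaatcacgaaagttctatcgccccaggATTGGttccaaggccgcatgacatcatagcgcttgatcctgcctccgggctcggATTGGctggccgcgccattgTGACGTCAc

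The complete element in *Elovl5* spans bases 4 to 11 of the transcript and occurs in 1.79% of all 32851 promoter windows of this length, read on both strands. Its core TGACG, which the complete element contains on each strand, was in 3 of the 8 windows (*Elovl5*, *Elovl7* and *Hsd17b12*) and in 20.8% of all windows. The CCAAT box was in 4 of the 8 windows and in 37.4% of all, and the GC box in 6 of the 8 and in 35.7% of all. The sterol regulatory element core TCACNCCAC was in none of the 8 windows and in 1.24% of all. Perfect direct repeats of the kinds bound by liver X receptors (direct repeat 4) and PPARs (direct repeat 1) were in none of the 8 either, and in 0.0152% and 0.0396% of all windows. A match is a run of letters and not a shown binding site, and no match says only that these letters are not in this window.

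On the scale of FPKM, which is per length and so can be set side by side between genes, *Scd2* had the highest mean over the 12 libraries (110 FPKM, 78.6 to 156), followed by *Elovl5* (91.6 FPKM, 88.3 to 97.2), which elongates polyunsaturated chains. The order of these 2 differed between libraries, with *Scd2* above *Elovl5* in 6 of 12, those without TVA. *Hsd17b12* came next with a mean of 26.1 FPKM (24.9 to 29.8) and *Elovl1*, which makes very long saturated and monounsaturated chains, with 20.6 FPKM (19.1 to 22.2). *Fads2* (17.6 FPKM, 13.8 to 21.8) and *Fads1* (16.7 FPKM, 14.8 to 18.4) overlapped, *Fads2* being the higher in 7 of 12 libraries, and *Elovl1* lay above *Fads2* in 9 of 12. *Elovl6*, which takes palmitate to stearate and so feeds the *Scd* enzymes, had 5.47 FPKM (4.78 to 6.06). *Elovl7* had 2.77 FPKM (2.3 to 3.32) and *Scd1* 1.83 FPKM (0.793 to 2.99), with *Elovl7* the higher in 9 of 12 libraries. *Fads3* was at most 0.162 FPKM. The remaining neighbours in this order kept it in 12 of 12 libraries.

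**Figure D1:**
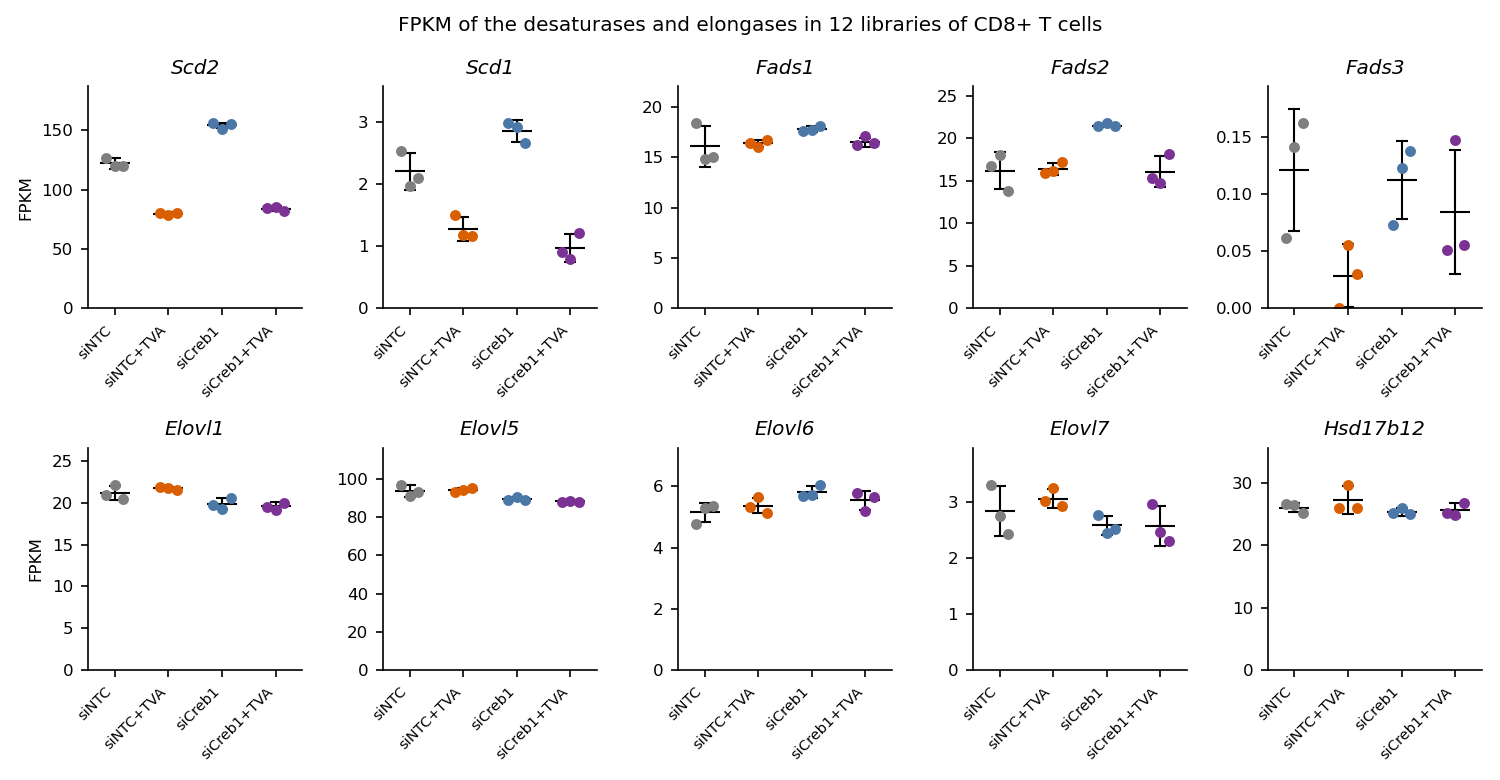
FPKM (vertical axis, from 0) of the 10 genes in the 3 libraries of each of the 4 groups (horizontal axis); points are libraries, the bar is the mean and the whiskers the SD. *Scd2* and *Scd1* sit lower in both TVA groups, *Fads2* is highest in the si*Creb1* group (21.4 to 21.8 FPKM), and the elongases lie at similar levels in all groups.

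*Scd2* (ENSMUSG00000025203, chromosome 19, 44293676 to 44306864, plus strand, GRCm38) was the main *Scd* transcript of these cells and was lower with TVA in both cell groups. In siNTC cells it was at 127, 120 and 120 FPKM without TVA and at 80.4, 78.6 and 80.2 FPKM with TVA. With the knockdown it was at 156, 151 and 155 FPKM without TVA and at 84.1, 85.6 and 81.7 FPKM with TVA. The 4 groups did not overlap: si*Creb1* cells were highest, siNTC cells next, and both TVA groups lay below every library without TVA, between 78.6 and 85.6 FPKM. TVA left 65.1% of the *Scd2* level in siNTC cells, a log2 fold change of −0.61 (standard error 0.03) on the log2(FPKM + 1) scale. *Scd2* fell to 54.5% in si*Creb1* cells, with a log2 fold change of −0.87 (standard error 0.03, limma Benjamini-Hochberg adjusted p = 6.85e-08). The gene was chosen with results of these libraries known too, so this is not an independent repeat.

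*Scd1* (ENSMUSG00000037071, chromosome 19, 44394451 to 44407709, minus strand), the main delta-9 desaturase of liver and fat, was low in these T cells. Its values in siNTC cells were 2.54, 1.97 and 2.11 FPKM without TVA and 1.5, 1.18 and 1.17 FPKM with TVA. After knockdown they were 2.99, 2.93 and 2.67 FPKM without TVA and 0.905, 0.793 and 1.22 FPKM with TVA. Both TVA groups lay below all libraries without TVA, and the TVA groups overlapped each other. TVA left 58.1% of the mean in siNTC cells (log2 fold change −0.49, standard error 0.1). *Scd1* fell to 34% in si*Creb1* cells (log2 fold change −0.97, standard error 0.1, limma adjusted p = 0.00135). The log2(FPKM + 1) scale understates changes at such levels, and limma-voom on the recovered reads gave −0.78 in siNTC and −1.58 in si*Creb1* cells. *Scd1* rested on 95 to 317 reads per library. How reads that fit both *Scd1* and its close paralogue *Scd2* were counted is not given in the sources used here, so its level is uncertain.

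Among the 9 tested genes, *Scd1* and *Scd2* were the 2 called lower with TVA in siNTC cells, and they were again the 2 called lower in si*Creb1* cells. Over all tested genes 7.38% were called in siNTC cells (4.49% higher, 2.88% lower), where the comparison served the choice of genes and nothing is read from the count. Among all tested genes 0.537% were called in si*Creb1* cells (0.121% higher, 0.416% lower), and *Scd2* and *Scd1* had the 34th and 29th lowest log2 fold change of the 11550. These ranks are not independent of the choice of genes either. In siNTC cells the count of 2 rests on *Scd1*, which was not called without replicate 1 of siNTC or without replicate 2 or 3 of siNTC plus TVA, leaving a count of 1 each time. Both calls in si*Creb1* cells held when each library was left out in turn, and without replicate 3 of siNTC *Fads2* made the count 3. The si*Creb1* libraries with and without TVA did not overlap for 5 of the 9 (*Scd1*, *Scd2*, *Fads1*, *Fads2* and *Elovl5*), all lower with TVA, beside 17.1% of all tested genes (8.09% higher, 9.01% lower).

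The summed level of *Scd1* and *Scd2* was 125 ± 4.64 FPKM (SD, n = 3) in siNTC cells, 81.0 ± 1.09 in siNTC plus TVA cells, 157 ± 2.22 in si*Creb1* cells and 84.8 ± 1.78 when si*Creb1* cells received TVA. *Scd2* made up between 98% and 99.1% of that sum in every library. Its level was 55.9 ± 5.25 times that of *Scd1* (SD, n = 3) in siNTC cells, 63.0 ± 8.12 times with TVA, 53.9 ± 3.53 times on knockdown and 89.3 ± 20.7 times in si*Creb1* plus TVA cells. The last group lay between 67.1 and 108, above the 51.6 to 58 of si*Creb1* cells without TVA. It overlapped the 53.6 to 68.6 of siNTC plus TVA cells. The ratio rests on the low and uncertain level of *Scd1*, and differences in it were not tested. As a share of the summed FPKM of all 10 genes, *Scd2* was 39.5% to 40.4% in siNTC libraries and 29.5% to 30.5% with TVA. For si*Creb1* libraries it was 44.8% to 45.7% and with TVA 31.3% to 33.1%. Set against *Elovl6*, the step before it, the *Scd* sum was 24.3 ± 2.48 times as high in siNTC cells and 15.1 ± 0.869 times with TVA, and 26.9 ± 0.932 and 15.3 ± 1.15 times in si*Creb1* cells (SD, n = 3 each).

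Knockdown of *Creb1* without TVA raised *Scd2* and *Fads2*. *Scd2* rose to 126% of its siNTC mean (log2 fold change 0.33, standard error 0.03, limma adjusted p = 9.91e-05), a call kept under every alternative. *Scd1* was at 130% with no overlap between the groups, but did not pass the test (log2 fold change 0.27, standard error 0.1, limma adjusted p = 0.111), and limma-voom on reads put it at 0.39 with an adjusted p of 0.029. Of the 9 tested genes 2 were called, both higher, beside 13.7% of all tested genes (6.52% higher, 7.21% lower). The libraries did not overlap for 5 of the 9, higher on knockdown for *Scd1*, *Scd2*, *Fads2* and *Elovl6* and lower for *Elovl5*, beside 31.5% of all tested genes (15.5% higher, 16% lower). The count of 2 was 1 without replicate 2 of si*Creb1*, and 3 without replicate 1 or 2 of siNTC. With TVA present neither *Scd* gene passed the test on FPKM for knockdown. *Scd2* was at 105% (log2 fold change 0.07, standard error 0.03, 95% interval of the difference 0.01 to 0.13, limma adjusted p = 0.142) and *Scd1* at 75.7% (log2 fold change −0.21, standard error 0.1, limma adjusted p = 0.217). With limma-voom on reads *Scd2* passed (adjusted p = 0.0256), and *Scd1* was at −0.41 (adjusted p = 0.154). These comparisons share their libraries with those of TVA and are not separate evidence.

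The TVA effect on *Scd2* was larger in si*Creb1* than in siNTC cells by −0.26 (standard error 0.04) on the log2 scale, given as a description since the interaction holds values that served the choice of genes. The difference was −0.48 (standard error 0.15) for *Scd1*, −0.43 (standard error 0.13) for *Fads2* and −0.13 (standard error 0.09) for *Fads1*. With limma-voom on reads it was −0.8 for *Scd1* and −0.48 for *Fads2*, and without replicate 1 of siNTC it was −0.23 for *Fads1*. The count of the 9 genes under the threshold was 1, or 2 without that library, beside 2.24% of all tested genes (0.459% higher, 1.78% lower), and nothing is read from it.

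*Fads2* (ENSMUSG00000024665, chromosome 19, 10064164 to 10101503, minus strand), the delta-6 desaturase whose upstream sequence is printed above, was higher on knockdown without TVA. It was at 16.7, 18.1 and 13.8 FPKM in siNTC cells, at 15.9, 16.2 and 17.2 FPKM with TVA, at 21.4, 21.8 and 21.4 FPKM in si*Creb1* cells and at 15.3, 14.7 and 18.2 FPKM in si*Creb1* cells with TVA. The 3 si*Creb1* libraries without TVA lay above the other 9, which overlapped each other. *Fads2* rose to 133% on knockdown without TVA (log2 fold change 0.4, standard error 0.09, limma adjusted p = 0.0174). That call was lost without replicate 2 of si*Creb1* (limma adjusted p = 0.0517), where the log2 fold change was 0.39. The call was also lost with no filter on low values (limma adjusted p = 0.0546) and with only the libraries compared (limma adjusted p = 0.0501). For knockdown with TVA present the difference was −0.03 (standard error 0.09, limma adjusted p = 0.856). With TVA in si*Creb1* cells *Fads2* was at 74.6% of its level without TVA (log2 fold change −0.41, standard error 0.09), which did not pass the test on FPKM (limma adjusted p = 0.111) and passed with limma-voom on reads (adjusted p = 0.00527) and without replicate 3 of siNTC (limma adjusted p = 0.039). In siNTC cells the TVA difference was 0.03 (standard error 0.09), and −0.079 without replicate 3 of siNTC and −0.005 without replicate 3 of siNTC plus TVA.

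*Fads1* (ENSMUSG00000010663, chromosome 19, 10182888 to 10196870, plus strand), the delta-5 desaturase of the next step, varied less. Its values were 18.4, 14.8 and 15 FPKM in siNTC cells, 16.4, 16 and 16.7 FPKM with TVA, 17.6, 17.7 and 18.1 FPKM in si*Creb1* cells and 16.2, 17.1 and 16.4 FPKM in si*Creb1* cells with TVA. It passed no comparison. The largest difference was knockdown without TVA (log2 fold change 0.14, standard error 0.07, limma adjusted p = 0.182). Without replicate 1 of siNTC, the highest of its group, it was 0.24 and passed (limma adjusted p = 0.00288). The ratio of *Fads2* to *Fads1* was 1.21 ± 0.0238 (SD, n = 3) in si*Creb1* cells and between 0.974 and 1.02 on average in the 3 other groups.

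*Fads3* (ENSMUSG00000024664, chromosome 19, 10041548 to 10059671, plus strand) was close to the limit of these libraries. It had 4, 8 and 11 reads in siNTC cells, 0, 3 and 2 reads with TVA, 5, 9 and 10 reads in si*Creb1* cells and 4, 12 and 4 reads in si*Creb1* cells with TVA. A count of 0 allows up to 3 reads, which in that library is 0.0497 FPKM, counting error only. The siNTC plus TVA libraries were at or under that floor and held the fewest reads, and the other groups overlapped. The gene entered no test.

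The 3 *Fads* genes and the *Scd* genes form separate clusters on chromosome 19. Within 100 kb of the *Fads* genes 3 other genes were tested, *Fth1*, *Fen1* and *Tmem258*, and none was called for TVA in either cell group (*Fen1*, with 2.32 FPKM, had a log2 fold change of 0.2 in siNTC cells, limma adjusted p = 0.415). *Fth1*, the ferritin heavy chain, fell on knockdown without TVA (log2 fold change −0.17, limma adjusted p = 0.00916), where *Fads2* rose. In the *Scd* cluster no other gene passed the filter. *Scd4* was at 0.675 ± 0.0257 FPKM (SD, n = 3) in siNTC cells and 0.314 ± 0.044 with TVA, and at 0.748 ± 0.201 and 0.444 ± 0.143 FPKM in si*Creb1* cells without and with TVA, which overlapped. *Scd3* did not exceed 0.129 FPKM in any library.

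**Figure D2:**
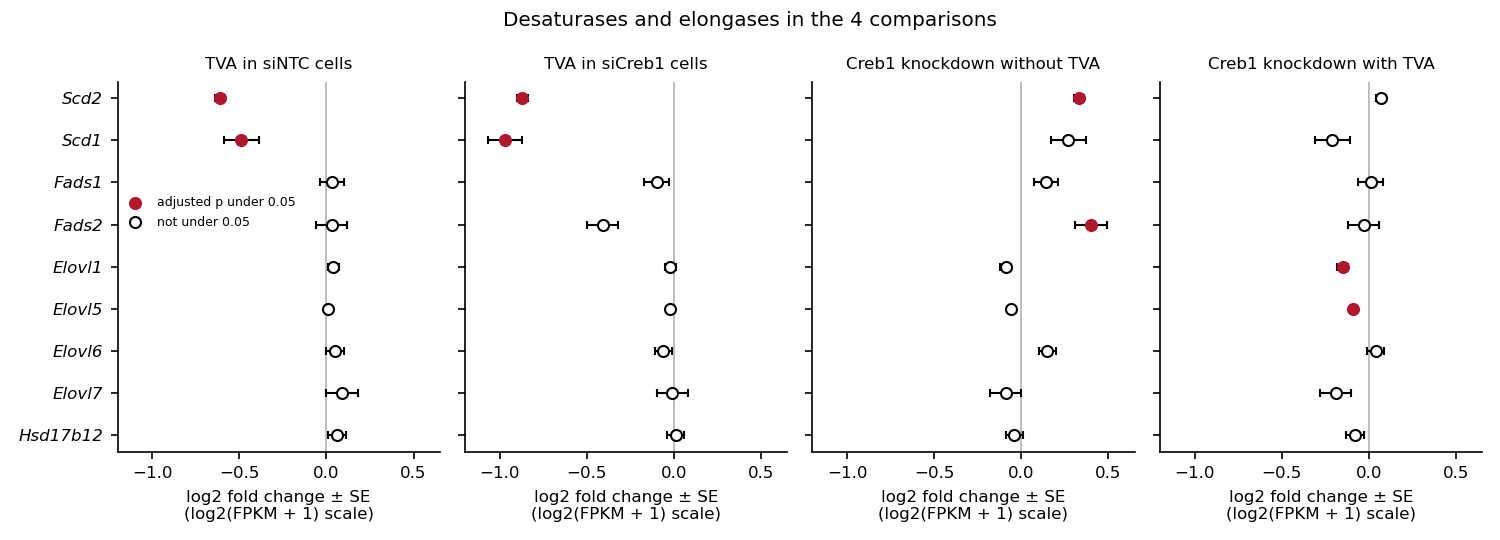
Log2 fold change (horizontal axis, log2(FPKM + 1) scale) with its standard error for the 9 tested genes (vertical axis) in the 4 comparisons; filled points have an adjusted p under 0.05. *Scd2* and *Scd1* lie at −0.61 and −0.49 for TVA in siNTC cells and at −0.87 and −0.97 in si*Creb1* cells, while the elongases stay between −0.19 and 0.15 in all 4. For TVA in siNTC cells the filling is a description, since that comparison served the choice of genes.

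Of the 4 elongases and their reductase 0 passed the limma test for TVA in either cell group, and 0 passed at an unadjusted p under 0.05 or with limma-voom on reads. *Elovl5* (ENSMUSG00000032349, chromosome 9, 77917364 to 77984519, plus strand) was at 97.2, 91.1 and 93.3 FPKM in siNTC cells, 93.5, 94.3 and 95.3 FPKM with TVA, 89.3, 90.7 and 89.1 FPKM in si*Creb1* cells and 88.3, 88.6 and 88.3 FPKM in si*Creb1* cells with TVA. The TVA pairs of groups differed by at most 1.45%, while every si*Creb1* library lay below every siNTC library. The nearest were at 90.7 and 91.1 FPKM. Without TVA the log2 difference on knockdown ranged from −0.086 to −0.018 over the alternatives, so its size depends on the processing. *Elovl6* was at 4.78, 5.29 and 5.37 FPKM in siNTC cells, 5.34, 5.64 and 5.13 FPKM with TVA, 5.7, 5.71 and 6.06 FPKM in si*Creb1* cells and 5.79, 5.19 and 5.66 FPKM in si*Creb1* cells with TVA. For *Elovl1*, *Elovl5*, *Elovl6*, *Elovl7* and *Hsd17b12* the log2 fold changes for TVA were between 0.01 and 0.09 in siNTC cells and between −0.06 and 0.01 in si*Creb1* cells. The 95% intervals of these differences in si*Creb1* cells reached from −0.21 to 0.2 at the widest, so a fall of the size seen for *Scd2* (−0.87) lay outside all 5. The summed *Elovl* level was 123 ± 2.78 FPKM (SD, n = 3) in siNTC cells, 125 ± 0.68 with TVA, 118 ± 0.318 in si*Creb1* cells and 116 ± 0.642 in si*Creb1* cells with TVA, with *Elovl5* between 75.8% and 76.3% of it on average.

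*Creb1* knockdown in the presence of TVA lowered 2 elongases by small amounts. *Elovl1* (ENSMUSG00000006390, chromosome 4, 118428093 to 118432953, plus strand) was at 21.9, 21.8 and 21.6 FPKM in the TVA-treated siNTC libraries and at 19.5, 19.1 and 20 FPKM in the TVA-treated si*Creb1* libraries, without overlap. It fell by 10.1% (log2 fold change −0.15, standard error 0.03, limma adjusted p = 0.0247). *Elovl5* fell by 6.34% (log2 fold change −0.09, standard error 0.02, limma adjusted p = 0.0334). Over all tested genes 10.1% were called in this comparison (4.64% higher, 5.51% lower), beside 2 of the 9. The libraries did not overlap for 3 of the 9 (*Elovl1* and *Elovl5*, lower, and *Scd2*, higher), beside 31.8% of all tested genes (14.3% higher, 17.6% lower). With the replicate number as a block neither passed (limma adjusted p = 0.0508 and 0.0622), nor did either on TPM, after quantile normalization or with limma-voom on reads. The *Elovl5* difference itself was −0.041 on TPM and −0.033 after quantile normalization. Without replicate 1 or 2 of either TVA group, or without replicate 3 of siNTC plus TVA, the count was 0, and without replicate 3 of si*Creb1* plus TVA it was 1, *Elovl1*. On knockdown without TVA the same genes were at −0.09 and −0.06 (limma adjusted p = 0.132 and 0.102).

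The 3' end of *Elovl1* overlaps *Cdc20*, a cell division gene on the opposite strand, by 53 bases. *Cdc20* had a mean of 34.9 FPKM, rose with TVA in siNTC cells (log2 fold change 0.3, limma adjusted p = 0.00674) and fell on knockdown with TVA (−0.34, limma adjusted p = 0.00493), where *Elovl1* fell too. Whether reads were counted by strand is not given in the sources used here, so reads from the overlap cannot be assigned. *Elovl7* was between 2.3 and 3.32 FPKM and *Hsd17b12* between 24.9 and 29.8 FPKM, with no call in any comparison. The largest differences were −0.19 (limma adjusted p = 0.241) for *Elovl7* and −0.08 (limma adjusted p = 0.333) for *Hsd17b12*, both for knockdown with TVA. *Elovl6* was at 113% on knockdown without TVA with no overlap (log2 fold change 0.15, standard error 0.05, limma adjusted p = 0.0933), and passed with limma-voom on reads (adjusted p = 0.0436) and, at the threshold, on TPM (0.21, limma adjusted p = 0.05).

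The desaturases take their electrons from cytochrome b5 and its reductases. Of 6 such genes 5 were tested (*Cyb5a*, *Cyb5b*, *Cyb5r1*, *Cyb5r3* and *Cyb5r4*) and 0 were called by limma or limma-voom in any comparison, with at most 2 at an unadjusted p under 0.05. The share of all tested genes called by limma ran from 0.537% (TVA in si*Creb1* cells) to 13.7% (knockdown without TVA). *Cyb5a* ranged from 38.9 to 47.1 FPKM over the libraries and *Cyb5b* from 37.9 to 43.3 FPKM. Their log2 fold changes for TVA were 0.04 and −0.03 in siNTC cells, and −0.09 and −0.12 in si*Creb1* cells (limma adjusted p = 0.62 and 0.262). Of 14 further desaturases and enzymes of the elongation cycle 5 were tested, *Degs1*, *Degs2*, *Hacd2*, *Hacd3* and *Tecr*. TVA called 0 of them in either cell group by limma or limma-voom (2 in siNTC and 0 in si*Creb1* cells at an unadjusted p under 0.05). Of all tested genes limma called 7.38% in siNTC and 0.537% in si*Creb1* cells for TVA. In the presence of TVA, knockdown raised *Degs2*, a sphingolipid desaturase and hydroxylase (log2 fold change 0.59, limma adjusted p = 0.0105), and lowered *Hacd2*, a dehydratase of the elongation cycle (log2 fold change −0.23, limma adjusted p = 0.0211).

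**Figure D3:**
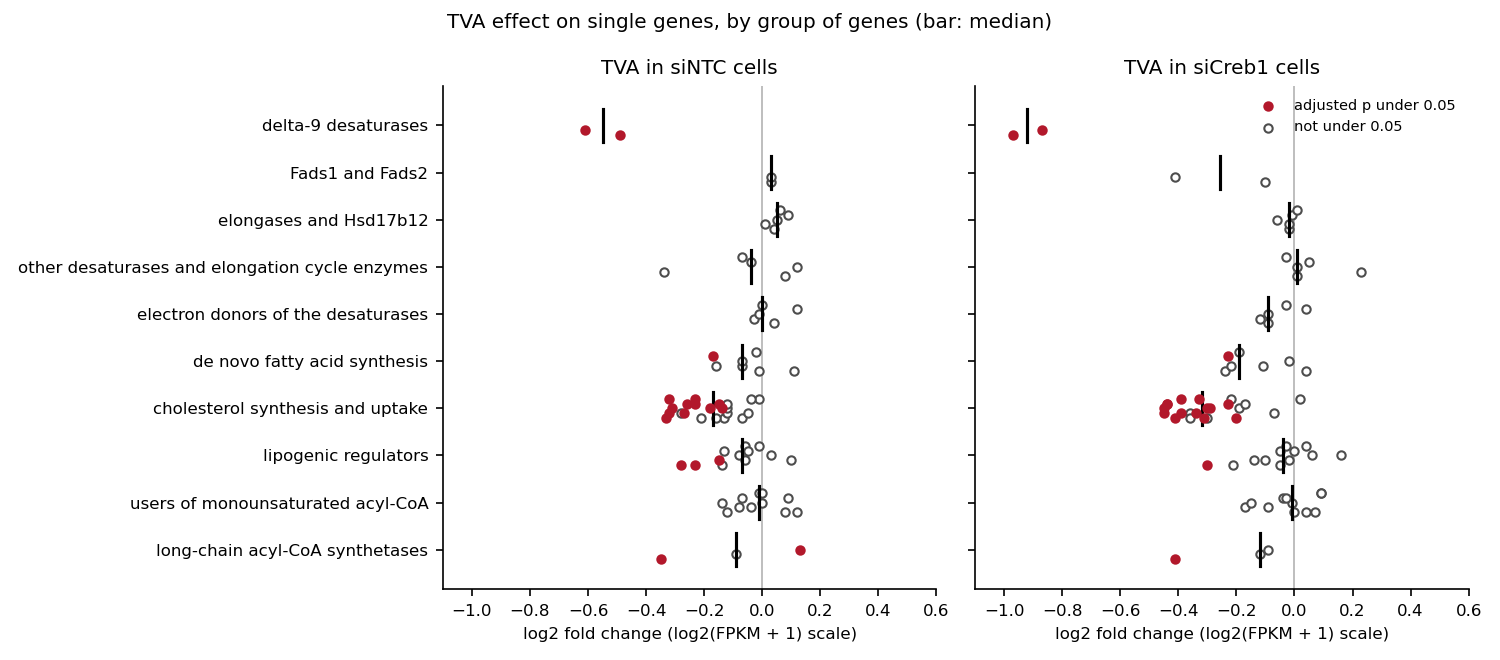
Log2 fold change for TVA (horizontal axis, log2(FPKM + 1) scale) of single genes in siNTC cells (left) and si*Creb1* cells (right), by group of genes (vertical axis); the bar is the median and filled points have an adjusted p under 0.05. The delta-9 desaturases lie furthest to the left in both panels (medians −0.55 and −0.92), and the cholesterol genes have 11 and 14 filled points (medians −0.17 and −0.32), all left of 0. In the left panel the filling of the delta-9 desaturases is a description, since that comparison served the choice of genes.

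Of 22 tested genes of cholesterol synthesis and uptake, the other large group that SREBP factors control, 11 fell with TVA in siNTC cells, with a median log2 fold change of −0.17 beside −0.006 over all tested genes. On top of *Creb1* knockdown 14 fell (median −0.32 beside −0.001), and 0 rose in either. Of all tested genes 2.88% were called lower with TVA in siNTC cells and 0.416% in si*Creb1* cells. Among them were *Lss*, the lanosterol synthase (log2 fold change −0.31 and −0.45, limma adjusted p = 0.00187 and 0.00105), and *Hmgcs1*, an early enzyme of the mevalonate pathway (−0.23 and −0.44, limma adjusted p = 0.000694 and 5.39e-05). Knockdown without TVA raised 4 of the 22, with *Hmgcs1*, *Lss* and *Dhcr7* among them, beside 13.7% of all tested genes called (6.52% higher, 7.21% lower). With TVA 1 was higher on knockdown and 2 lower, beside 10.1% of all tested genes (4.64% higher, 5.51% lower). These lists were chosen with earlier results known.

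Fatty acid synthase (*Fasn*), which makes the palmitate that the elongases and *Scd* enzymes use, was at 37.1, 36.9 and 34.7 FPKM in siNTC cells and 32.1, 32.5 and 31.9 FPKM with TVA. It was at 39.5, 38.9 and 39.5 FPKM in si*Creb1* cells and 34.2, 33.4 and 32.2 FPKM in si*Creb1* cells with TVA. *Fasn* fell with TVA in both (log2 fold change −0.17 and −0.23, limma adjusted p = 0.0078 and 0.00555) and rose on knockdown without TVA (0.11, limma adjusted p = 0.0322). It was the 1 gene of 7 tested in de novo fatty acid synthesis that TVA called by limma on FPKM, while limma-voom on reads called 1 in siNTC and 3 in si*Creb1* cells. Of all tested genes limma on FPKM called 7.38% in siNTC and 0.537% in si*Creb1* cells for TVA. *Acaca*, the acetyl-CoA carboxylase of the step before, rose on knockdown (log2 fold change 0.23, limma adjusted p = 0.011) and was at −0.01 for TVA in siNTC cells and −0.24 in si*Creb1* cells (limma adjusted p = 0.957 and 0.084), the latter passing with limma-voom (adjusted p = 0.00095).

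Of 12 tested regulators of lipid synthesis, *Srebf1*, *Srebf2* and *Insig1* fell with TVA in siNTC cells, by 0.23, 0.15 and 0.28 on the log2 scale (limma adjusted p = 0.00674, 0.0132 and 0.000892). *Insig1*, itself an SREBP target that holds SREBPs in the endoplasmic reticulum, also fell in si*Creb1* cells, by 0.3 (limma adjusted p = 0.00354). *Srebf1* and *Srebf2* were at −0.21 and −0.14 there (limma adjusted p = 0.069 and 0.103), and both passed with limma-voom on reads (adjusted p = 0.00175 and 0.0103). Knockdown called none of these 3. Of the 3 tested long-chain acyl-CoA synthetases, which activate fatty acids such as TVA, *Acsl3* fell with TVA in both cell groups (log2 fold change −0.35 and −0.41, limma adjusted p = 0.0154 and 0.0353). *Acsl5* rose in siNTC cells (0.13, limma adjusted p = 0.0278) and was at −0.09 in si*Creb1* cells (limma adjusted p = 0.392). Of 11 tested users of monounsaturated acyl-CoA, which esterify it to lipids and cholesterol, TVA called 0 in either by limma or limma-voom (1 in each at an unadjusted p under 0.05). Of the 3 liver X receptor targets 2 fell in siNTC cells (*Abcg1* and *Mylip*) and 1 in si*Creb1* cells (*Abcg1*), and limma-voom called all 3 in both, *Abca1* included. *Abcg1*, a cholesterol exporter, had a log2 fold change of −0.62 in each cell group (limma adjusted p = 0.00022 and 0.00135). Of 16 tested genes of PPAR and fatty acid oxidation 5 rose and 1 fell in siNTC cells and 3 rose in si*Creb1* cells, led by *Cpt1a* (log2 fold change 1.48 and 1.38, limma adjusted p = 3.34e-08 and 6.85e-08). Beside these counts, limma called 7.38% of all tested genes for TVA in siNTC cells and 0.537% in si*Creb1* cells. For knockdown it called 13.7% without TVA and 10.1% with TVA. These lists too were chosen with earlier results known.

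By Pearson's r of log2(FPKM + 1) over the 12 libraries, given as a description, the genes most like *Scd2* included *Lss* (0.986), *Hmgcs1* (0.983), *Mvd* (0.972) and *Fasn* (0.967). Those most like *Scd1* were *Msmo1* (0.97), *Mvd* (0.946), *Hmgcs1* (0.945), *Irgm1* (0.94) and *Scd2* (0.934). The 12 libraries share their 4 groups, so these values carry mainly the group means. *Fads2* stood at 0.653 to *Scd2* and 0.661 to *Scd1*, and *Fads1* at 0.401 and 0.379. The elongases and *Hsd17b12* lay between −0.365 and 0.219 against either.

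**Figure D4:**
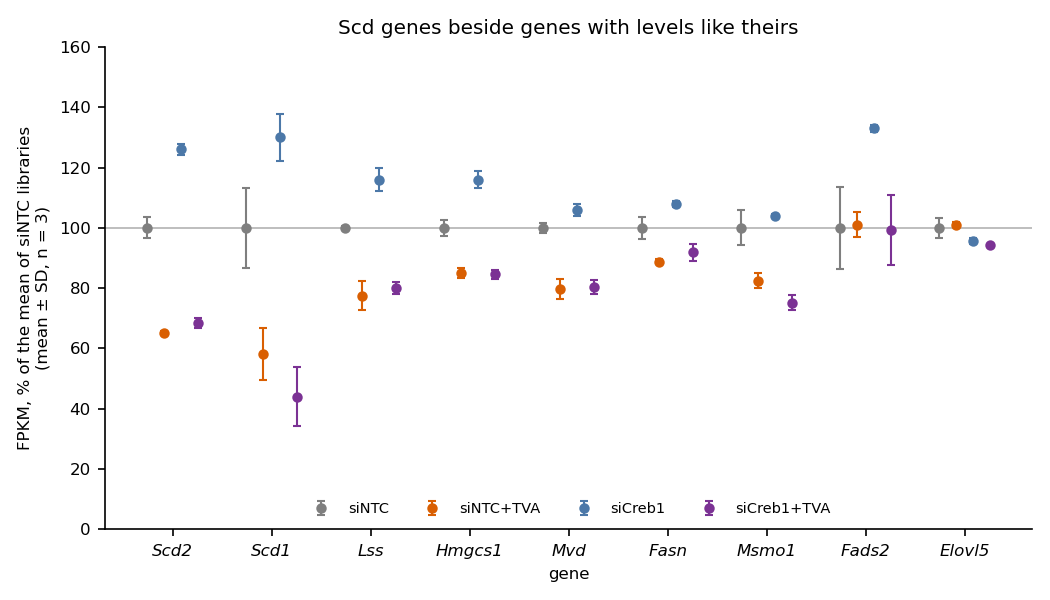
FPKM as a percentage of the mean of the siNTC libraries (vertical axis, from 0, mean ± SD, n = 3) in the 4 groups. The genes (horizontal axis) are *Scd2*, *Scd1*, genes whose pattern across the libraries was like theirs, *Fads2* and *Elovl5*. The si*Creb1* group is above 100% of the siNTC mean for all but *Elovl5*, and both TVA groups are below it for all but *Fads2* and *Elovl5*, lowest for *Scd1* (58.1% and 44%) and *Scd2* (65.1% and 68.4%).

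Some other gene groups moved with the groups compared. All 14 proliferation genes on the list were called higher with TVA in siNTC cells, beside 4.49% of all tested genes called higher. For TVA in si*Creb1* cells 0 were called by limma (5 at an unadjusted p under 0.05, 1 with limma-voom), beside 0.537% of all tested genes by limma. All 14 were called higher on knockdown without TVA, beside 6.52% of all tested genes called higher. On knockdown with TVA 8 were called lower, beside 5.51% of all tested genes called lower. The 5 myeloid markers summed to 10.7 to 12.2 FPKM in si*Creb1* plus TVA libraries and to 8.38 to 10.5 in si*Creb1* libraries, the 4 B cell markers to 11.8 to 12.8 against 10.2 to 11.3, and the 2 NK cell markers to 4.76 to 5.07 against 3.83 to 4.27. The 8 CD8 T cell markers summed to 2090 to 2110 FPKM in the siNTC libraries and to 2000.0 to 2030 in the si*Creb1* libraries, with or without TVA. Single markers went both ways on knockdown without TVA. The means of *Cd8b1* (934 to 835 FPKM), *Cd3d*, *Cd3g*, *Cd2* and *Cd5* were lower. Those of *Cd8a* (417 to 443 FPKM), *Gzmb* (72.4 to 97.9 FPKM) and *Cd3e* were higher. In siNTC cells the myeloid sum was lower with TVA (7.96 to 8.24 against 8.54 to 9.4 FPKM). The part of these groups in the *Scd1*, *Scd2* and *Fads2* differences was not tested.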

How the data were processed

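Gene-level FPKM of 12 libraries (3 in each of 4 groups) were used as the authors deposited them, 1 table per library with 54532 genes, their positions and lengths. The submitters' processing notes name GRCm38 (mm10). The aligner, counting program, annotation release, strand setting and between-library scaling are not given in the sources used here. Of the 10 gene positions 5 are identical in GENCODE vM21, and the *Scd1*, *Scd2* and *Fads* genes differ there at an end. At least 99.995% of the values above 0 were whole reads (within 0.05 of a read) once divided by the step of the library, and the recovered reads had a median of 20759165 per library (19456 to 20993 genes above 0). Between replicates the variance was 3.54 to 5.29 times that of counting alone, so no libraries were merged.

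Testing used limma 3.58.1 in R 4.3.3 on log2(FPKM + 1) of the 11550 genes whose mean reached 1 FPKM, with a coefficient per group, a moderated variance that follows the mean level and 8 residual degrees of freedom. P-values were Benjamini-Hochberg adjusted over these genes (threshold 0.05). A permutation test of 3 against 3 libraries cannot reach this threshold and none was run. The fit was tested on simulated data. Same-numbered libraries deviated from their group means with correlations of −0.059 to 0.06, so the numbers were not taken to pair libraries.

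The genes, lists and tests were chosen with earlier results of these data known. All 10 genes are named, and from each other list the called genes (at most 4 per list and comparison by size) and the tested desaturase, elongation cycle and electron donor genes; from the likeness ranking the 5 highest; and genes within 100 kb of the *Scd* and *Fads* clusters or overlapping a listed gene. Proliferation genes are given as counts, and some genes that this rule would name are not reported here. *Fads2* and *Elovl5* promoters were chosen for printing after their values were seen. Alternatives were a pseudocount of 0.1, no filter (29700 genes), a mean FPKM of at least 5 (7480 genes), TPM computed from FPKM, quantile normalization, a replicate block, no trend, limma-voom on recovered reads, only the libraries compared, and each library left out. Tables were made in Python 3.11.15 with pandas 2.3.3, and figures with matplotlib 3.10.9.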

Additional observations from a re-analysis of the deposited data

Results flagged for a closer look

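The TVA effect on *Scd2* was −0.87 in si*Creb1* and −0.61 in siNTC cells on the log2 scale, a difference of −0.26 that is given as a description, since it holds values that served the choice of the gene. By limma's interaction term over all tested genes the effect differed for *Hmgcs1*, the mevalonate pathway enzyme (−0.21, with effects of −0.44 and −0.23, adjusted p = 0.0212), and for *Acsl5*, an acyl-CoA synthetase (−0.22, with effects of −0.09 and 0.13, adjusted p = 0.0301). Their lists were chosen with results of these libraries known, and both genes are named because they were called, so their p-values are not independent of that choice. *Hmgcs1* was the 1 called of 22 tested cholesterol genes, and *Acsl5* the 1 called of 3 tested acyl-CoA synthetases. Of all tested genes 2.24% were called for the interaction. For *Scd2* and *Hmgcs1* the levels with TVA were close in both cell groups (79.8 and 83.8 FPKM for *Scd2*, 32.5 and 32.3 FPKM for *Hmgcs1*), and the levels without TVA differed (122 and 154 FPKM, and 38.2 and 44.2 FPKM).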

How the results depend on the processing

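Neither *Scd2* call for TVA nor its rise on knockdown without TVA was lost under any alternative, and no called difference turned its sign. All alternatives use the same libraries, and TVA in siNTC cells served the choice of genes. The calls kept therefore show only how far they depend on processing and are no separate evidence. Of the 9 genes, 1 rather than 2 was called for TVA in siNTC cells with no filter, with a mean FPKM of at least 5 or with only the libraries compared, and 1 or 2 with a library left out. In si*Creb1* cells it was 1 with a mean FPKM of at least 5, which removes *Scd1* from the test, 3 with limma-voom and 2 to 3 with a library left out. For knockdown without TVA it was 1 with no filter or only the libraries compared, 3 on TPM, 4 with limma-voom, and 1 to 3 with a library left out. For knockdown with TVA it was 1 with no filter, no trend or limma-voom, 0 on TPM, after quantile normalization or with the replicate block, and 0 to 2 with a library left out. For the interaction it was 0 on TPM, 3 with limma-voom, and 1 to 2 with a library left out. The block changed no other count of these 9 genes. The cause of these changes was not tested.

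Signs that turned belong to small differences that passed no test. With a library left out, TVA in siNTC cells ranged from −0.021 to 0.13 for *Fads1* (−0.013 among them), −0.079 to 0.11 for *Fads2* (−0.005 among them), −0.013 to 0.033 for *Elovl5* (−0.01 after quantile normalization) and −0.005 to 0.091 for *Hsd17b12*. In si*Creb1* cells *Elovl7* ranged from −0.084 to 0.051 (0.032 and 0.016 among them, and 0.009 with limma-voom) and *Hsd17b12* from −0.021 to 0.033. For knockdown *Hsd17b12* was at 0.007 without TVA on TPM, and with TVA *Fads1* ranged from −0.008 to 0.028 (−0.001 among them) and *Fads2* from −0.12 to 0.024 (0.017 on TPM). For the interaction *Hsd17b12* reached 0.017 and *Creb1* ranged from −0.14 to 0.045 (0.035 among them). Scaling also moved the balance of calls over all genes: knockdown without TVA gave 753 higher and 833 lower, but 908 and 297 on TPM and 1178 and 805 with limma-voom. With TVA it gave 536 and 636, but 620 and 120 on TPM, 595 and 335 after quantile normalization, and 909 and 623 with limma-voom. TVA gave 519 and 333 in siNTC cells (402 and 154 on TPM), and 14 and 48 in si*Creb1* cells (64 and 93 with limma-voom). Other counts over all genes that moved by over 1.5 times were, with only the libraries compared, 368 of 852 for TVA in siNTC cells, 39 of 62 in si*Creb1* cells and 817 of 1586 for knockdown without TVA; with no filter, 563 for TVA in siNTC cells, 992 for knockdown without TVA and 683 of 1172 for knockdown with TVA; in si*Creb1* cells, 37 on TPM, 34 with the block and 157 with limma-voom; and for the interaction (259), 152 on TPM and 446 with limma-voom. With a library left out, the count was 558 for TVA in siNTC cells (without replicate 2 of siNTC plus TVA), 30 to 35 in si*Creb1* cells (replicate 1 or 2 of si*Creb1* or any of si*Creb1* plus TVA), 1020 and 1054 for knockdown without TVA (replicate 1 or 2 of si*Creb1*), 599 to 757 for knockdown with TVA (any TVA library) and 168 to 172 for the interaction (replicate 2 of siNTC plus TVA, or 1 or 2 of si*Creb1*). *Fads3*, *Scd3* and *Scd4* lay below the filter on low values, and few reads limit their precision.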
